A study of Mus musculus with 20 samples.

Results

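The genes described here encode 10 proteins of purinergic and adenosine signalling: the P2Y receptors P2ry12, P2ry6, P2ry13 and P2ry14, the P2X channels P2rx4 and P2rx7, the ectonucleotidase Entpd1 and the adenosine receptors Adora2a, Adora2b and Adora3. They were taken by symbol from a raw count table of 33243 genes, and all 10 were found and tested. RNA was sequenced in bulk from dural CNS-associated macrophages (dCAMs), the resident macrophages of the outer meningeal layer, sorted as CD45int CD11b+ CD206int-high cells from the cranial dura of Ccr2CreERT2/+ R26tdT/tdT mice, in which tamoxifen switches on the red fluorescent protein tdTomato (tdT) in cells that express the monocyte gene Ccr2 at that time. Every mouse, controls included, carried both alleles, had its macrophages depleted with the CSF1R inhibitor BLZ945 (200 mg per kg for 7 days) and was given tamoxifen at 2 mg per day on the last BLZ945 day and 2 and 4 days later. After 8 weeks of repopulation, 5 mice received bacterial lipopolysaccharide (LPS, 2.5 mg per kg; mice 54, 56, 59, 60 and 61) and 5 received PBS (CTL; mice 174, 175, 177, 178 and 179), and the dura was taken 12 h later. A tdT+ and a tdT- library were made from each mouse, which gave 20 libraries in 4 groups of 5. The sample titles carried the letter F for mice 54, 56, 174, 175 and 179. They carried M for mice 59, 60, 61, 177 and 178, and this title letter was a term in an alternative fit. The tdT- gate takes every unlabelled cell. Cells that escaped labelling, and monocyte-derived cells that arrived after the tamoxifen days, therefore cannot be told apart from cells that never expressed Ccr2. The paper reports that blood-derived cells keep replacing dCAMs in control mice. No group without depletion was analysed here.

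ATP and other nucleotides leave stressed or damaged cells and act as extracellular signals. P2X receptors are cation channels opened by ATP, whereas P2Y receptors are G protein-coupled receptors for ADP, UDP, UTP, ATP or UDP-sugars. Entpd1 (CD39) cuts ATP and ADP to AMP, Nt5e (CD73) turns AMP into adenosine, adenosine acts on its own G protein-coupled receptors, and nucleoside transporters such as Slc29a1 carry it across the membrane. In brain macrophages the ADP receptor P2ry12 is best known as a gene of resting microglia that is also expressed by border macrophages, and the UDP receptor P2ry6 is known for its link to phagocytosis.

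Counts per library totalled 6017650 to 12208203 in CTL and 12073566 to 18925908 in LPS libraries. The part of the lower depth of most CTL libraries in their values at 0 was not tested. In tdT- CTL libraries 6671 to 9365 genes reached 10 counts, against 10024 to 11987 in the other 3 groups. Levels are given as counts per 1000000 (CPM) after TMM scaling, and a count of 3 or fewer in a library, 0.170 to 0.487 CPM, is treated as not above the floor. Every listed marker of border macrophages was detected in each group, with summed levels of 5333 to 15592 CPM, while the microglial factor Sall1 was at most 1.97 CPM. The fibroblast marker sum was 3786 CPM in the tdT- CTL library of mouse 179 and 10.6 to 819 CPM in all others. Neutrophil markers summed to 46.7 to 195 CPM in CTL and 434 to 1087 CPM in LPS libraries, with the defining marker Ly6g at the floor in every CTL and every tdT+ LPS library.

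In coordinates of GRCm38, used only to place the genes because the build behind the count table could not be settled, 6 of the 10 lie close to another receptor gene of this kind. P2ry14 (chr3:59113855-59153618), P2ry13 (chr3:59207892-59210882) and P2ry12 (chr3:59216272-59262871) follow each other on the minus strand, 54.3 kb and 5.39 kb apart, inside the span of Med12l on the other strand. P2rx7 (chr5:122643911-122691432) and P2rx4 (chr5:122707544-122729738) are 16.1 kb apart on the plus strand. P2ry6 (chr7:100937630-100974649, minus strand) lies 21.9 kb from P2ry2, a receptor for ATP and UTP outside the 10. Entpd1 is on chr19:40612366-40741602, Adora2a on chr10:75316877-75334784, Adora2b on chr11:62248984-62266453 and Adora3 on chr3:105870858-105908926, all on the plus strand. Of the exon bases of Adora3, 779 (20.9%) are shared with Tmigd3 on the same strand, so that reads there may have been split or dropped in counting. Tmigd3 itself reached at most 1.19 CPM in any library. Between P2ry12 and Med12l 9 exon bases are shared, and with an unstranded kit those reads cannot be assigned to a strand.

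The 250 bases before the RefSeq start (GRCm38.p6) are shown 5′ to 3′ on the strand of the gene. They are given for the adenosine receptors that rose under LPS in tdT+ dCAMs (Adora2b and Adora3), for the ectonucleotidase that fell (Entpd1) and for P2ry12. The gene spans above come from GENCODE, a separate annotation. The RefSeq start of Adora3 lies well inside its span above, and that of P2ry12 lies just outside its span. Capitals mark matches to 6 motifs searched on both strands. The table of starts held 8 of the 10 genes.
Adora2b, chr11:62248734-62248983, plus strand: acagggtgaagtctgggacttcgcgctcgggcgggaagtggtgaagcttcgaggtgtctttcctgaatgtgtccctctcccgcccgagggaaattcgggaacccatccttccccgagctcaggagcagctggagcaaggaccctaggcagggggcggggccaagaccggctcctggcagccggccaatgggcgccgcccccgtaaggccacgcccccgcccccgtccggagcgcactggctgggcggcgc
Adora3, chr3:105904171-105904420, plus strand: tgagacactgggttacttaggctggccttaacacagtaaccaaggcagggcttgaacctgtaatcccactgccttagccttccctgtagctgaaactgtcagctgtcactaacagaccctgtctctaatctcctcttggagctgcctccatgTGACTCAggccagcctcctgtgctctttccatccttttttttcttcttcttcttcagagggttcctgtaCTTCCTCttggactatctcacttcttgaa
Entpd1, chr19:40612116-40612365, plus strand: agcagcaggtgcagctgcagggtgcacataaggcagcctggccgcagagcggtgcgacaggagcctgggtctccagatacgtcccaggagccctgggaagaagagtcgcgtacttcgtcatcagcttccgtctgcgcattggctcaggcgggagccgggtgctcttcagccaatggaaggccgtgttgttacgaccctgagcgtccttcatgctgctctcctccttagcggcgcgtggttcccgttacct
P2ry12, chr3:59262986-59263235, minus strand: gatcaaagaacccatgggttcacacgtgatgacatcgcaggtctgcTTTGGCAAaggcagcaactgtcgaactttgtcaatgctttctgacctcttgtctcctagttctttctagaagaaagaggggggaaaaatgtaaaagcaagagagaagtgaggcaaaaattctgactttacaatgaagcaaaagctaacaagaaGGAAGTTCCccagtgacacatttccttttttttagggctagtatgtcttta
The Adora3 window held an AP-1 motif (TGANTCA, present in 6.75% of 32851 such windows) 98 bases before its RefSeq start. Its PU.1 motif (GAGGAAG, in 10.6%) lay 29 bases before that start. The P2ry12 window held an NF-kB motif (GGAANTTCC, in 0.813%) and a C/EBP motif (TTGCNNAA, in 9.56%). Neither of these, nor the CRE motif (TGACGTCA, in 1.55%) or the TATA motif (TATAAA, in 12.4%), was found in the windows of Adora2b and Entpd1, which also held no AP-1 or PU.1 match. A further Entpd1 start, with the window chr19:40659520-40659769, had a PU.1 match 227 bases before it. These letters describe the windows and do not show binding.

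The first comparison asked how the genes differed between LPS and CTL within each population. P2ry6 fell in both populations, Entpd1 fell and Adora2b and Adora3 rose in tdT+ dCAMs, and P2rx4 passed in neither population. A gene passed when its edgeR adjusted p was below 0.05 and its log2 fold change exceeded 1 in size. By this rule 1 of the 10 genes passed in tdT- dCAMs, where 11.5% of all 16632 genes tested passed, and 4 of 10 passed in tdT+ dCAMs, where 5.89% passed. In tdT+ dCAMs LPS and CTL values were fully separate for 7 of the 10 genes, 3 higher and 4 lower, against 17.8% of all genes. In tdT- dCAMs they were fully separate for 3 of 10, 2 higher and 1 lower, against 12.6%. The median log2 fold change of the 10 genes was -0.22 in tdT- and -0.58 in tdT+ dCAMs, beside 0.02 and 0.01 over all genes. Fewer cells of a type and less RNA per cell cannot be told apart in these bulk libraries. Border macrophage markers moved too: of 9, Csf1r and Mrc1 fell and Fcgr1 rose under LPS in tdT+ dCAMs, and Mrc1 and Lyve1 fell and Fcgr1 and Mertk rose in tdT- dCAMs. Their sum was 13523 to 15592 CPM in tdT+ CTL and 7345 to 9414 CPM in tdT+ LPS libraries, without overlap, and 5333 to 11535 CPM in tdT- CTL and 6134 to 7157 CPM in tdT- LPS libraries. Their part in the lower LPS levels of P2ry6, Entpd1, P2ry12 and P2rx7 was not tested.

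**Figure D1:**
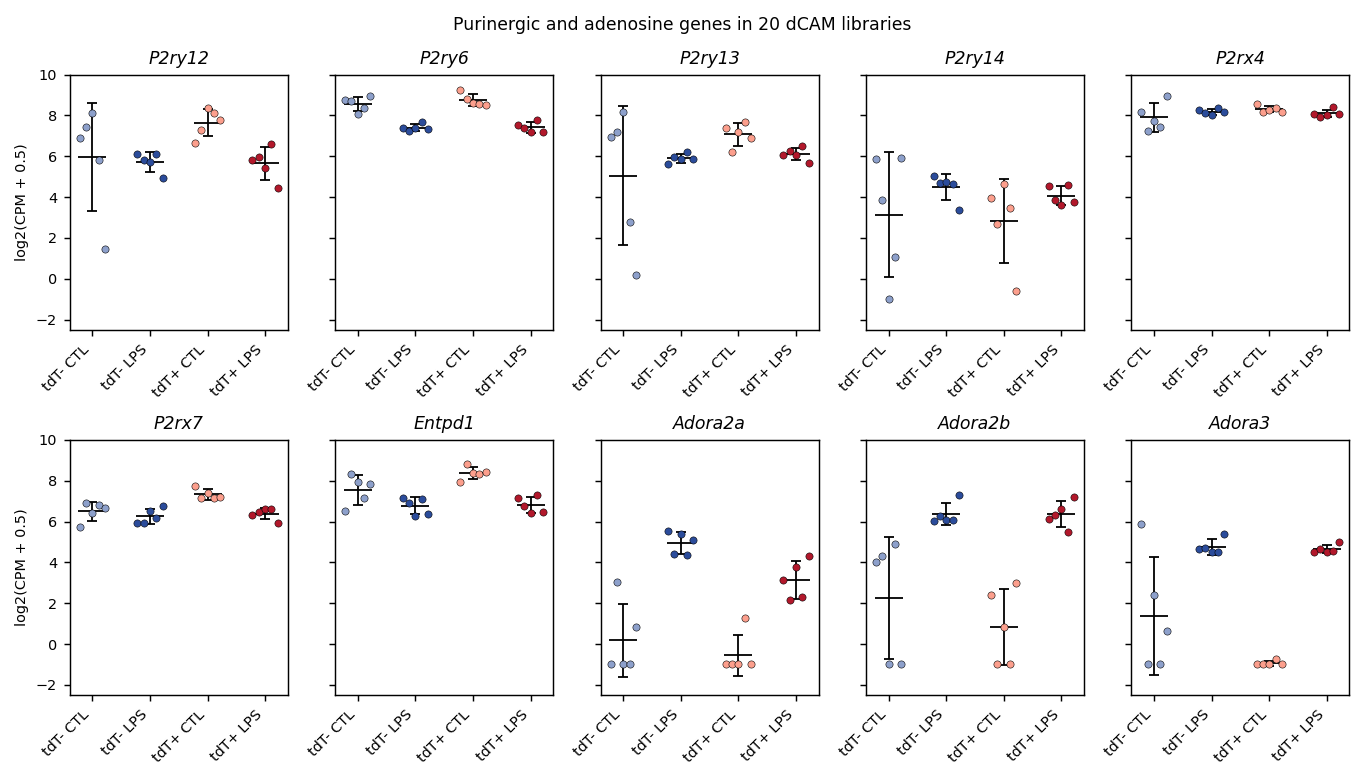
Each panel plots log2(CPM + 0.5) of a gene on the vertical axis for the 4 groups on the horizontal axis, with a point per library, mice in ascending number from left to right, and the mean with its SD over 5 libraries. P2ry6 sits lower in every LPS library than in any CTL library, whereas Adora3 in tdT+ dCAMs goes from at most 0.105 CPM in CTL to 21.9 to 30.9 CPM in LPS libraries.

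P2ry6, the UDP receptor, had the highest mean per kb of exon of the 10 genes in every group. In each group its range over libraries overlapped that of the next gene. In tdT- dCAMs its level was 425, 410.0, 269, 331 and 486 CPM in the CTL mice and 167, 150.0, 164, 205 and 163 CPM in the LPS mice, in ascending order of mouse number. Every LPS library lay below every CTL library, and the log2 fold change was -1.18 ± 0.20 (SE, edgeR adjusted p = 0.000458). In tdT+ dCAMs the CTL libraries held 615, 448, 391, 372 and 369 CPM and the LPS libraries 183, 166, 144, 219 and 146 CPM. These groups did not overlap either, with a log2 fold change of -1.35 ± 0.21 (adjusted p = 0.000124). P2ry6 passed in both populations under all 20 alternative settings run.

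P2ry12, the ADP receptor, was at 101, 157, 332, 281 and 216 CPM in tdT+ CTL and at 56.4, 61.5, 42, 97.6 and 21.3 CPM in tdT+ LPS dCAMs. The groups did not overlap, though the nearest libraries were 97.6 and 101 CPM, and the log2 fold change of -1.97 ± 0.68 did not pass (adjusted p = 0.102). The P2ry12 value in tdT+ dCAMs passed in 6 of 20 alternatives: with the mouse as a block in limma-voom (-2.19, adjusted p = 0.0307), in DESeq2 (adjusted p = 0.0265), with quality weights in limma-voom (0.000203), with the 10 tdT+ libraries alone (0.00333), without mouse 179 (0.0125) and without its tdT- CTL library (0.00591). In tdT- dCAMs the CTL libraries spread from 2.22 CPM in mouse 179 and 56.3 CPM in mouse 178 to 120.3, 171 and 279 CPM in mice 174, 175 and 177, and the LPS libraries held 67.9, 55.7, 51.4, 69.6 and 29.9 CPM. The CTL libraries of mice 178 and 179 lay within and below the LPS range, and the log2 fold change was -1.19 ± 0.67 (adjusted p = 0.231). Without the tdT- CTL library of mouse 179, the library with the highest fibroblast marker sum, it was -1.51 and passed (adjusted p = 0.0299). The part of that fibroblast signal in the P2ry12 value was not tested.

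P2ry13, a further ADP receptor, showed the same split among tdT- CTL libraries. Its level was 124, 143 and 285 CPM in mice 174, 175 and 177 and 6.32 and 0.654 CPM in mice 178 and 179, while the 5 tdT- LPS libraries held 48.6 to 73.3 CPM. The CTL range thus enclosed the LPS range (log2 fold change -0.90 ± 0.78, edgeR adjusted p = 0.463). In tdT+ dCAMs the range was 73.9 to 206 CPM in CTL and 50.7 to 91.1 CPM in LPS libraries, again overlapping (-1.02 ± 0.78, adjusted p = 0.561). The log2 ratio of P2ry12 to P2ry13 in a library, computed on CPM + 0.5, was 0.58 ± 0.78 (SD, n = 5) in tdT+ CTL and -0.46 ± 0.50 in tdT+ LPS dCAMs, a difference of -1.04 that missed the threshold (exact two-sided permutation p = 0.0556, 0.167 after adjustment over 6 ratio tests). Without mouse 174 that difference was -1.37 and passed before adjustment (exact permutation p = 0.00794). In tdT- dCAMs the difference was -1.06 (exact permutation p = 0.119, adjusted 0.238).

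P2ry14, the receptor for UDP-glucose, varied widely among CTL libraries. In tdT- CTL dCAMs it was at 58.7, 13.9, 0, 1.58 and 60.1 CPM, and in tdT- LPS dCAMs at 32.3, 25.7, 26.1, 24.5 and 9.68 CPM. Mouse 177, with the highest P2ry12 and P2ry13 of its group, had no P2ry14 count, and mouse 179, with the lowest of both, had the highest P2ry14. The tdT+ libraries held 0.153 to 24.2 CPM in CTL and 11.8 to 23.3 CPM in LPS mice, and P2ry14 did not pass in either population (adjusted p = 0.949 in tdT- and 0.886 in tdT+).

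Of the summed counts of these 4 P2Y genes, P2ry6 took 63.7% ± 22.9 (SD, n = 5) in CTL and 55.3% ± 4.38 in LPS libraries of tdT- cells, and 54.6% ± 11.9 and 55.4% ± 4.81 in those of tdT+ cells. P2ry12 took 26.9% ± 10.2 in tdT+ CTL and 16.9% ± 4.96 in tdT+ LPS libraries. The share of P2ry6 ran from 32.3% to 88.5% among tdT- CTL libraries but only from 50.9% to 63.2% among tdT+ LPS libraries. These are shares of counts that are not divided by length, and no test was run on them.

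**Figure D2:**
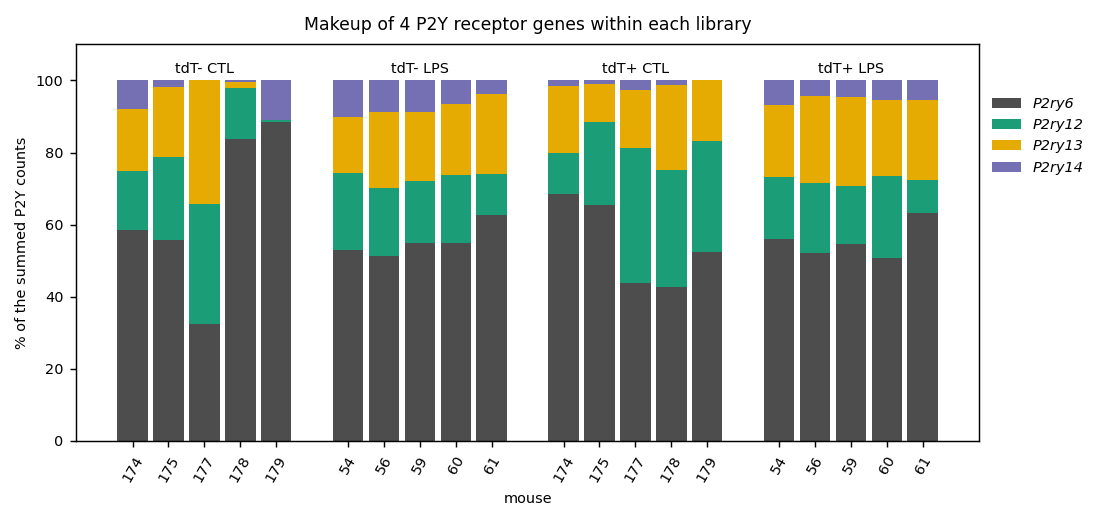
Stacked bars give the percentage of the summed counts of 4 P2Y receptor genes (vertical axis) in each library, grouped by population and treatment and labelled with the mouse number (horizontal axis). P2ry6 takes 32.3% to 88.5% across the tdT- CTL libraries and 50.9% to 63.2% across the tdT+ LPS libraries.

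The P2X channels behaved differently from each other. P2rx4, an ATP-gated channel found largely on lysosomes and the cell surface of macrophages, held 263 ± 141 CPM (SD, n = 5) in CTL and 291 ± 28.6 CPM in LPS libraries of tdT- cells, and 318 ± 33.5 and 274 ± 35.5 CPM in those of tdT+ cells. The groups overlapped, and the log2 fold changes were 0.14 ± 0.25 in tdT- (edgeR adjusted p = 0.750) and -0.22 ± 0.25 in tdT+ dCAMs (adjusted p = 0.757). P2rx7, the ATP-gated channel upstream of the NLRP3 inflammasome, was at 212, 143, 171, 140.4 and 146 CPM in tdT+ CTL and at 80.7, 87.9, 96.2, 98.9 and 59.7 CPM in tdT+ LPS dCAMs. Every LPS library lay below every CTL library, and the adjusted p was 0.0448, but the log2 fold change of -0.94 ± 0.28 stayed under the size threshold; with library totals in place of TMM it was -1.02 and passed, as it did with the filterByExpr filter and without mouse 178. In tdT- dCAMs P2rx7 held 51.9 to 118 CPM in CTL and 59.9 to 108 CPM in LPS libraries (-0.26 ± 0.28, adjusted p = 0.557). The log2 ratio of P2rx4 to P2rx7 in tdT+ dCAMs was 0.98 ± 0.17 (SD, n = 5) in CTL and 1.70 ± 0.30 in LPS libraries, without overlap, a difference of 0.72 with the smallest p that permuting 5 against 5 libraries allows (exact two-sided p = 0.00794, adjusted 0.0476). In tdT- dCAMs that ratio differed by 0.52 (exact permutation p = 0.333, adjusted 0.400).

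Entpd1 (CD39), the ectonucleotidase of the set, was at 247, 452, 332, 317 and 340.2 CPM in tdT+ CTL and at 143, 108, 84.9, 156 and 86.6 CPM in tdT+ LPS dCAMs. The groups did not overlap, and Entpd1 fell by 1.54 on the log2 scale (SE 0.31, edgeR adjusted p = 0.00256), a call that stood in all 20 alternatives. In tdT- dCAMs it was at 90.0, 315, 245, 141 and 229 CPM in CTL and at 141, 121, 76.3, 139 and 82.5 CPM in LPS libraries. The CTL library of mouse 174 lay within the LPS range, and the log2 fold change of -0.87 ± 0.31 did not pass (adjusted p = 0.0691). Without mouse 174 it was -1.08 and passed (adjusted p = 0.0101). That library also had the lowest border macrophage sum of its group, 5333 CPM, and the part of this in the Entpd1 value was not tested.

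The 3 adenosine receptors were low or at 0 in most CTL libraries and present in every LPS library. Adora2b, the low-affinity receptor, held 15.8, 19.2, 0, 29.7 and 0 CPM in tdT- CTL and 65.0, 77.6, 66.9, 66.4 and 158 CPM in tdT- LPS dCAMs. The groups did not overlap, but the log2 fold change of 2.74 ± 1.27 did not pass (edgeR adjusted p = 0.151), and with the mouse as a block in limma-voom it was 5.28 and passed (adjusted p = 0.00881). In tdT+ dCAMs the CTL libraries held 4.87, 0, 1.27, 0 and 7.44 CPM and the LPS libraries 68.5, 78.4, 97.6, 44.5 and 149 CPM. Adora2b rose there, with a log2 fold change of 5.00 ± 1.41 (adjusted p = 0.0350). This call was lost in 9 of 20 alternatives, among them leaving out any of mice 54, 56, 59, 60, 61, 174, 175 and 178 (adjusted p = 0.0512 to 0.101), while the direction stayed and the log2 value lay between 4.66 and 7.33.

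Adora3 in tdT+ dCAMs had 0, 0, 0, 0.105 and 0 CPM in CTL libraries, the single value above 0 resting on 1 count, and 22.3, 24.7, 21.9, 23.0 and 30.9 CPM in LPS libraries. It rose at least 72.5-fold against a floor of 3 counts per library (edgeR adjusted p = 0.00168). In tdT- dCAMs the CTL libraries held 58.4, 0, 4.79, 0 and 1.05 CPM and the LPS libraries 24.9, 25.5, 21.9, 22.1 and 41.6 CPM. The CTL library of mouse 174 exceeded every LPS library, the other 4 CTL libraries lay below all of them, and the log2 fold change of 1.08 ± 1.21 did not pass (adjusted p = 0.588). Without mouse 174 it was 4.20 and passed (adjusted p = 0.0215), and with the mouse as a block in limma-voom it was 4.69 and passed (adjusted p = 0.00459).

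Adora2a, the high-affinity receptor that raises cyclic AMP, held 0, 7.80, 0, 0 and 1.31 CPM in tdT- CTL and 46.4, 20.5, 40.9, 19.8 and 33.6 CPM in tdT- LPS dCAMs. In tdT+ dCAMs it held 0, 0, 0, 1.89 and 0 CPM in CTL and 8.23, 3.96, 13.3, 4.46 and 19.5 CPM in LPS libraries. LPS libraries lay above CTL libraries without overlap in both populations, yet neither the log2 fold change of 4.13 ± 1.60 in tdT- nor that of 4.66 ± 1.66 in tdT+ dCAMs passed (edgeR adjusted p = 0.0936 and 0.114). DESeq2 called both (adjusted p = 0.0267 and 0.0165), as did the block in limma-voom (adjusted p = 0.000201 and 0.00168). The log2 ratio of Adora2b to Adora2a, on CPM + 0.5, was 1.40 ± 2.56 (SD, n = 5) in tdT+ CTL and 3.21 ± 0.54 in tdT+ LPS dCAMs, a difference of 1.81 that did not pass (exact two-sided permutation p = 0.190, adjusted 0.286). It passed before adjustment with a pseudocount of 2 CPM (2.23, exact p = 0.00794) and without mouse 179 (2.46, exact p = 0.0397). In tdT- dCAMs that difference was -0.67 (exact permutation p = 0.667, adjusted 0.667). Without mouse 175 the tdT- value passed (adjusted p = 0.0132) and without mouse 178 the tdT+ value passed (adjusted p = 0.00542), these being the CTL mice with the highest Adora2a of their group. Neutrophil marker sums were also higher in LPS libraries, 434 to 1087 against 46.7 to 195 CPM, and their part in the levels of the adenosine receptors was not tested.

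With the mouse as a block in limma-voom, members passing in tdT- dCAMs numbered 4 (Adora2a, Adora2b, Adora3 and P2ry6) in place of 1, in a fit that called 27.2% of all genes in place of 11.5%. In tdT+ dCAMs that fit called 6 members and 9.45% of all genes. In tdT- dCAMs 3 members passed without mouse 174, and without mouse 175 or mouse 179 2 passed.

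**Figure D3:**
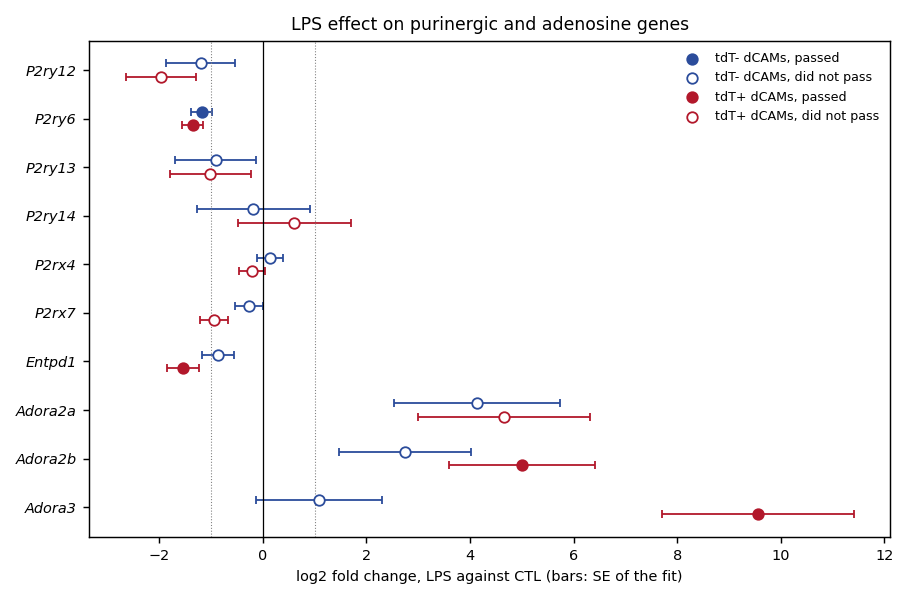
The horizontal axis gives the log2 fold change of LPS against CTL with the SE of the fit for each gene (vertical axis), in blue for tdT- and in red for tdT+ dCAMs, and filled points passed the threshold. P2ry6 is filled in both populations, whereas Entpd1 at -1.54, Adora2b at 5.00 and Adora3 are filled in tdT+ dCAMs, where the Adora3 value depends on the prior count because its CTL libraries are at the floor.

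Per kb of exon, the order of the 10 genes changed between CTL and LPS. In tdT+ CTL dCAMs P2ry6 led with 152 CPM per kb, followed by P2ry12 (85.5), Entpd1 (60.5), P2ry13 (55.9) and P2rx4 (45.3), neighbours whose ranges over libraries overlapped, and then by P2rx7 (27.2) without overlap with P2rx4 above it or Adora2b (1.47) below it. In tdT+ LPS dCAMs P2ry6 still led with 59.5 CPM per kb, but Adora2b came next with 47.4, ahead of P2rx4 (39.0), P2ry13 (27.7), P2ry12 (21.9) and Entpd1 (20.8). Each of these overlapped the next in range. The order in tdT- LPS dCAMs began likewise with P2ry6 (58.8), Adora2b (47.0) and P2rx4 (41.4 CPM per kb), while in tdT- CTL dCAMs every gene overlapped its neighbour, from P2ry6 (133) to Adora2a (0.595).

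**Figure D4:**
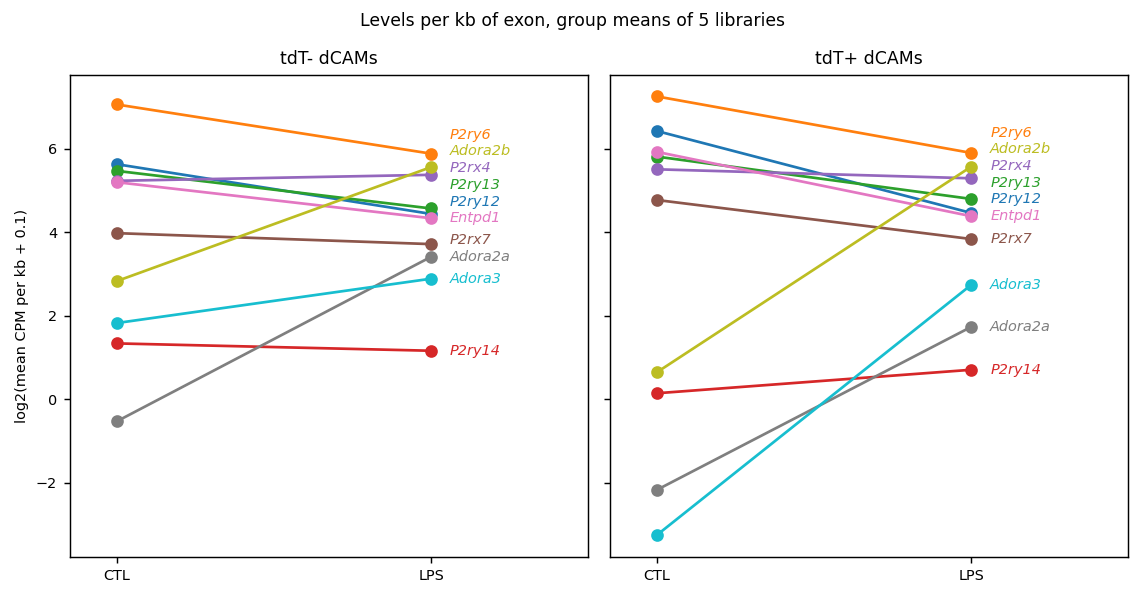
Lines join the mean level per kb of exon in CTL and LPS dCAMs for each gene, on a log2 vertical axis of CPM per kb + 0.1, with tdT- dCAMs on the left and tdT+ on the right; points are means of 5 libraries and errors are not drawn. Adora2b climbs from 1.47 to 47.4 CPM per kb in tdT+ dCAMs and lies next below P2ry6 under LPS.

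Among the LPS mice, mice 60 and 61 each stood at an end of the range in both of their libraries for several genes. Mouse 61 had the highest Adora2b (158 CPM in tdT- and 149 in tdT+), the highest Adora3 (41.6 and 30.9) and the lowest P2ry12 (29.9 and 21.3). Its neutrophil marker sums were also the highest of their groups, 1087 and 956 CPM. Mouse 60 had the highest P2ry6 (205 CPM in tdT- and 219 in tdT+) and P2ry12 (69.6 and 97.6). It also had the highest P2ry13 (73.3 and 91.1) and P2rx4 (330 and 334). Its neutrophil marker sums were the lowest of their groups, 434 and 446 CPM. The part of these sums in the values of both mice was not tested.

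The second comparison set tdT+ against tdT- libraries of the same mice. In CTL mice 1 of the 10 genes passed, Adora3, where 4.28% of all genes did, and 2 of 10 had the same sign in all 5 mice, against 9.46% of all genes. P2rx7 was higher in the tdT+ library of each of the 5 CTL mice, at 140.4 to 212 CPM against 51.9 to 118 CPM, without overlap (log2 difference 0.80 ± 0.28, edgeR adjusted p = 0.103). Without mouse 175 it was 1.04 and passed (adjusted p = 0.0430), and without mouse 178 Adora2a passed as lower in tdT+ dCAMs, each of which brought the count to 2. That Adora2a value depends on the prior count, because the remaining tdT+ CTL libraries had 0 counts. Without mouse 175 the Adora2a value changed sign (0.57). Entpd1, like P2rx7, was higher in the tdT+ library of all 5 CTL mice (0.73 ± 0.31, edgeR adjusted p = 0.165). Adora3 was at least 37.9-fold lower in tdT+ CTL dCAMs against the floor (adjusted p = 0.00621), but 3 of 5 mice showed that direction, the tdT- mean of 12.8 CPM rested mainly on the 58.4 CPM of mouse 174, and the call was lost with the mouse as a block in edgeR (adjusted p = 0.117). Without mouse 174 the log2 difference was -5.36 (adjusted p = 0.0375). That tdT- library also had the highest dendritic cell marker sum of its group, 556 CPM, of which Flt3 made up 348 CPM, and its part in the Adora3 level was not tested. Border macrophage markers summed to 13523 to 15592 CPM in tdT+ CTL and 5333 to 11535 CPM in tdT- CTL libraries, which moves with the differences of P2rx7 and Entpd1, and its part in them was not tested. Monocyte markers went the other way, at 160 to 467 CPM in tdT+ CTL and 548 to 1095 CPM in tdT- CTL libraries. Their part in the differences between populations was not tested either.

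In LPS mice none of the 10 genes passed in edgeR, none had an unadjusted p under 0.05, and DESeq2, which gave Adora3 no adjusted p, called 0, where 0.0301% of all genes passed in edgeR. Adora2a alone had the same sign in all 5 mice, against 9.90% of all genes. It was at 19.8 to 46.4 CPM in tdT- and 3.96 to 19.5 CPM in tdT+ libraries, ranges that nearly met without overlap. The log2 difference was -1.70 ± 1.45 (edgeR adjusted p = 1.0). Under 21 alternatives Adora2a lay between -2.09 and -1.46 and did not pass. The dendritic cell marker sum moved with it, at 230.3 to 634 CPM in tdT- and 4.62 to 18.3 CPM in tdT+ LPS libraries, and was mostly Ccr7, a receptor of migrating cells, at 222 to 599 CPM in tdT- and 1.49 to 16.4 CPM in tdT+ libraries. The defining marker Flt3 was at 4.07 to 20.8 CPM in tdT- LPS libraries, Flt3 and Clec9a were at the floor in the tdT+ LPS libraries, and Xcr1 was at the floor in both. Their part in the Adora2a level was not tested. For P2ry6 the log2 difference was 0.02 ± 0.20, and for Entpd1 0.05 ± 0.31.

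The difference between the LPS effects of both populations passed for 1 of the 10 genes, against 1.26% of all genes. Adora3 rose more in tdT+ than in tdT- dCAMs by 8.48 ± 2.09 on the log2 scale (edgeR adjusted p = 0.0483), a value that depends on the prior count. The call was lost with the mouse as a block (adjusted p = 0.141 in limma-voom and 0.306 in edgeR), and without any of mice 54, 56, 59, 60, 61, 174 or 177 (adjusted p = 0.0743 to 0.156). Without mouse 174 the difference was 5.21. P2ry12, Entpd1 and P2rx7, whose LPS effects were more negative in tdT+ dCAMs, did not pass for that difference (values of -0.77 ± 0.93, -0.68 ± 0.43 and -0.67 ± 0.39; adjusted p = 0.938, 0.594 and 0.522).

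The remaining genes of nucleotide release, breakdown, sensing and adenosine handling were followed as a list of 37, of which 32 were tested, 4 had no count in any library (P2ry4, Entpd4, Entpd8 and Panx2) and Slc29a4 had too few. LPS against CTL passed for 3 of 32 in tdT- dCAMs (2 higher, 1 lower) and for 3 of 32 in tdT+ dCAMs (2 higher, 1 lower), beside 11.5% and 5.89% of all genes. The block in limma-voom, which also changes the test, called 10 and 8, beside 27.2% and 9.45% of all genes in that fit, and without mouse 174 the count in tdT- dCAMs was 5. P2ry2, the receptor for ATP and UTP and the neighbour of P2ry6, had at most 0.153 CPM in any CTL library, resting on 1 or 2 counts, and 83.3, 102, 109, 67.7 and 127 CPM in tdT- LPS and 95.4, 91.1, 125, 61.8 and 161 CPM in tdT+ LPS libraries. It rose at least 259-fold in tdT- and at least 316-fold in tdT+ dCAMs against a floor of 3 counts per library (edgeR adjusted p = 1.78e-08 and 1.30e-08). Neighbouring P2ry6 and P2ry2 thus moved in opposite directions in both populations.

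Slc29a1, an equilibrative transporter of adenosine, was at 118, 216, 91.6, 84.6 and 213 CPM in tdT- CTL and at 40.3, 70.8, 74.8, 56.7 and 65.2 CPM in tdT- LPS dCAMs. In tdT+ dCAMs the CTL libraries held 295, 220.0, 189, 226 and 219 CPM and the LPS libraries 46.2, 47.9, 76.7, 59.4 and 67.6 CPM. It fell without overlap in both populations (log2 fold change -1.23 ± 0.30 in tdT- and -1.95 ± 0.31 in tdT+, edgeR adjusted p = 0.00825 and 0.000177). The Slc29a1 call in tdT- dCAMs was lost without mouse 175 (-0.98) and with the 10 tdT- libraries alone (-1.21, adjusted p = 0.145). The antisense gene Gm17080 shares 6.86% of the exon bases of Slc29a1, and reads there cannot be told apart without strand.

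Nt5e (CD73) passed as higher in tdT+ LPS dCAMs at low levels, with 2.19, 0, 5.50, 1.56 and 3.18 CPM against 0 CPM in all 5 CTL libraries, at least 7.33-fold against the floor (adjusted p = 0.0270), and lost the call in 6 of 20 alternatives, each of them leaving out a mouse (54, 61, 175, 177, 178 or 179; adjusted p = 0.0519 to 0.0865). Slc29a2, a further nucleoside transporter, had 0 CPM in all 5 tdT- CTL libraries and 0.491 to 5.69 CPM after LPS, while tdT+ libraries held 0 to 7.75 CPM without and 1.53 to 3.96 CPM with LPS. It was at least 9.0-fold higher in tdT- LPS than in tdT- CTL dCAMs (adjusted p = 0.00189) and at least 11-fold higher in tdT+ than in tdT- CTL dCAMs (adjusted p = 0.00410), the only gene of the list to pass there, beside which the count was 3 without mouse 175, 2 without mouse 178 and 6 with the block in limma-voom, which called 13.5% of all genes there. The effect of LPS on it in tdT+ minus that in tdT- dCAMs was -8.88 ± 1.84 on the log2 scale, a value that depends on the prior count (adjusted p = 0.0218), and the call was lost with the mouse as a block in edgeR (adjusted p = 0.126) and without any of mice 54, 56, 59, 60 and 61 (adjusted p = 0.0629 to 0.0969), while without mouse 175 Entpd7 passed for that difference as well. Between populations in LPS mice 0 of 32 passed in edgeR, 3 had an unadjusted p under 0.05 and DESeq2, which gave 4 of the list no adjusted p, called 0.

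**Figure D5:**
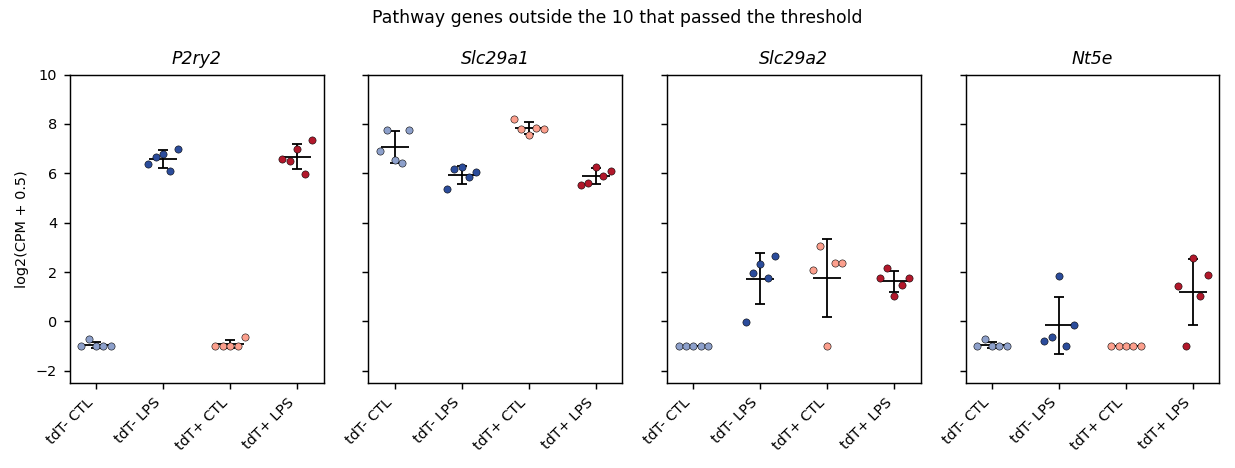
Panels give log2(CPM + 0.5) per library (points, with the mean and SD of 5 libraries) for the 4 genes of the list that passed in any comparison, by group on the horizontal axis. P2ry2 goes from at most 0.153 CPM in CTL to 61.8 to 161 CPM in LPS libraries, while Slc29a1 is lower in every LPS library than in any CTL library of its population.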

How the data were processed

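The authors aligned reads with STAR 2.7.11a and counted them with featureCounts 2.0.6, per the labels, and deposited raw counts per gene, whole numbers without scaling. Libraries were made with a low-input unstranded kit without molecular identifiers, so floors cover counting error only. The genome build behind the table could not be settled from the sources used here. The counts were tested with edgeR 4.0.16 (quasi-likelihood, TMM) in a single fit of 20 libraries with a mean per group, over 16632 genes with at least 10 counts in all, with Benjamini-Hochberg adjustment and thresholds of 0.05 and a log2 fold change of 1. limma 3.58.1 and DESeq2 1.42.0 in R 4.3.3 served as alternatives, and scripts were tested on simulated data. Log2 ratios of 2 genes used CPM + 0.5 and exact permutation tests. The tdT+ and tdT- libraries of a number came from the same mouse, so the mouse was a block in alternatives. Paired deviations correlated at 0.000914 to 0.119, and the within-mouse correlation in limma-voom was 0.0413. Replicates were separate mice. Genes named were the 10 members and the genes of a pathway list that passed in any comparison. The members and lists were chosen with earlier results of these data known. Depth was 6017650 to 12208203 counts per CTL library and 12073566 to 18925908 per LPS library.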

Additional observations from a re-analysis of the deposited data

Results flagged for a closer look

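In 40 groups of 5 libraries, 6 values stood apart from the rest of their group by Dixon's test at the 95% level. Chance does so in about 1 of 20 groups of normally distributed values. The test was run on CPM without a log scale, and several groups held values of 0, so that rate does not apply to them. In tdT- CTL dCAMs these were Adora2a in mouse 175 (7.80 CPM, others 0 to 1.31) and Adora3 in mouse 174 (58.4 CPM, others 0 to 4.79). In tdT+ CTL dCAMs they were Adora2a (1.89 CPM) and Adora3 (0.105 CPM, 1 count) of mouse 178, which stand apart because the other 4 libraries had 0 counts, and the Adora3 count is under the floor of 3. In tdT- LPS dCAMs they were Adora2b (158 CPM, others 65.0 to 77.6) and Adora3 (41.6 CPM, others 21.9 to 25.5) of mouse 61.

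The LPS effect differed between populations by the interaction term of the edgeR fit for Adora3 (8.48 on the log2 scale, tdT+ minus tdT-, adjusted p = 0.0483) and for Slc29a2 (-8.88, adjusted p = 0.0218). In each, a group was at or near 0 in its CTL libraries, so the size depends on the prior count.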

How the results depend on the processing

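Of 1015 values of the 10 genes under up to 21 alternatives, 927 kept direction and call, 24 lost and 29 gained a call, and 35 changed sign, none of them called in either fit. DESeq2 gave Adora3 no adjusted p in any comparison, so its calls could not be lost there. For LPS in tdT- dCAMs the members passing numbered 1, but 2 with DESeq2, 3 with quality weights, 4 with the mouse as a block in limma-voom, 1 to 3 without a mouse, and 2 without the tdT- CTL library of mouse 179, an alternative chosen after seeing the data. For LPS in tdT+ dCAMs they numbered 4, but 5 with DESeq2, 6 with the block in limma-voom, 7 with quality weights (3155 of 16632 genes called) or with the 10 libraries of the comparison alone (2226 called), and 3 to 5 without a mouse. Between populations in CTL mice they numbered 1, but 0 with quality weights, with the mouse as a block in edgeR and with the 10 libraries alone, and 1 to 2 without a mouse. For the difference of LPS effects they numbered 1, but 0 with quality weights, no filter, either block or the title letter as a term, and 0 to 1 without a mouse. Pathway genes passing in tdT- dCAMs numbered 3, but 6 with DESeq2, 10 with the block in limma-voom and 3 to 5 without a mouse. In tdT+ dCAMs they numbered 3, but 6 with DESeq2, 13 with quality weights, 8 with the block, 11 with the 10 libraries alone and 2 to 4 without a mouse. In CTL mice they numbered 1, but 2 with DESeq2, 0 with quality weights or the 10 libraries alone, 6 with the block in limma-voom and 1 to 3 without a mouse. For the difference they numbered 1, but 0 with quality weights or the block in edgeR, and 0 to 2 without a mouse. The LPS difference in the log2 ratio of P2ry12 to P2ry13 in tdT+ dCAMs lay between -1.37 and -0.85 without a mouse, and that of Adora2b to Adora2a between 0.90 and 2.46, or at 2.23 with a pseudocount of 2 CPM, while in tdT- dCAMs the latter lay between -1.65 and 0.30 and turned positive without mouse 174 or 178. In tdT- dCAMs the median log2 fold change over all genes was 0.76 with the block and 0.68 with quality weights against 0.02, and 80.8% and 76.5% of calls were higher against 62.8%. The quality weights were 0.185 to 0.401 in the tdT- CTL libraries and 0.644 to 2.44 in all others. The main edgeR fit shared its estimate of spread over all groups, these libraries included. Blocking by mouse changed no other call of the 10 genes than those given beside the results, and in limma-voom the block also changes the test. The cause of these changes was not tested. At a floor of 0.170 to 0.487 CPM, values under about 1 CPM rest on few counts.

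Results that changed sign had these values, of which none with the changed sign was called. Between populations in LPS mice P2ry12 was at -0.0080 with library totals, -0.15 with quality weights, -0.19 and -0.084 with the block in limma-voom and edgeR and -0.18 to 0.11 without a mouse. P2ry6 there was at -0.014 with library totals, -0.011 with the block in limma-voom and -0.013 to 0.060 without a mouse, and Adora2b at -0.019 with library totals, -0.0056 with the block in edgeR and -0.11 to 0.098 without a mouse. P2ry13 under LPS in tdT- dCAMs was at 0.42 with quality weights and 0.98 with the block. Without a mouse P2ry13 was at -0.064 to 1.04 between populations in CTL mice and -0.82 to 0.31 for the difference of LPS effects, which was 0.21 without the tdT- CTL library of mouse 179. P2ry14 under LPS in tdT- dCAMs was at 2.77 with quality weights, 2.06 with the block, 0.13 with the title letter, 0.35 without that library and -0.50 to 0.35 without a mouse. P2ry14 was at 1.03 between populations in CTL mice with quality weights, and its difference of LPS effects was -1.56 with quality weights, -0.39 and -0.054 with the block in limma-voom and edgeR and -0.063 to 1.62 without a mouse. Adora2a between populations in CTL mice was at -7.77 to 0.57 without a mouse, and its difference of LPS effects at -0.66 with quality weights, -0.47 with the block and -2.25 to 6.09 without a mouse. P2ry2 between populations in CTL mice was at -0.30 with quality weights, -0.068 with the block and -1.91 to 2.51 without a mouse, and its difference of LPS effects at 0.42, 0.21 and -2.36 to 2.04. Slc29a2 under LPS in tdT+ dCAMs was at 0.76 with quality weights and 0.33 with the block, and between populations in LPS mice at 0.058 with quality weights. Slc29a1 there lay between -0.075 and 0.077 without a mouse.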
